A study of Mus musculus with 4 samples.

Results

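Dclk1, Trpm5, Pou2f3, Avil, Gfi1b, Il25, Ptgs1, Alox5ap, Sh2d6 and Rgs13 are 10 genes used to recognise tuft cells of the intestine. They were taken by symbol from the 52459 genes of the count table, which lists all 10. RNA was measured in intestinal stem cells (ISCs) sorted from the small intestine of wild-type female C57/Bl6 mice with no treatment named. The SM6 sort kept EPCAM+ CD166+ cells with high EPHB2 and CD44, intermediate CD24 and low GRP78, and discarded cells with CD31 or CD45, the surface proteins of endothelium and leukocytes. Libraries came from 2 pools of mice aged 2 months (ISC_2mth) and 2 pools of mice aged 22 months (ISC_22mth), each holding the cells of 5 animals, so that the spread between animals is not seen.

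Tuft cells are rare chemosensory cells of the epithelium that carry a brush of stiff microvilli. They detect metabolites of parasites and microbes through a signalling chain shared with taste cells, and answer with the cytokine IL-25 and with lipid mediators, which activate innate lymphoid cells and drive a type 2 immune response. They arise from crypt stem cells under the transcription factor POU2F3, and the gate on CD24 bears on them because tuft cells express this protein strongly.

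Totals ranged from 11662654 to 15975698 counts per pool. Mitochondrially encoded genes took 62.6 and 65.7% of them at 2 months and 73.8 and 72.9% at 22 months, so that this share separated the ages, and its part in the results was not tested beyond the scalings given. Levels are given as CPM, counts scaled to the library size after TMM normalization, where 1 read was worth between 0.0662 and 0.0818 CPM. Lgr5, the receptor that marks crypt base stem cells, stood between 20.1 and 24.2 CPM per kb of exon in the 4 pools. In the same pools Muc2 of goblet cells stood between 142 and 202, and Lyz1 of Paneth cells between 161 and 593. Chgb of enteroendocrine cells stood between 7.87 and 39.9 CPM per kb, and the purity of the sort was not tested. The 13692 genes tested were those where any pool exceeded both 5 reads and 1 CPM, this CPM being taken over total counts before TMM. At a false discovery rate (FDR) under 0.05 by edgeR's quasi-likelihood test 309 genes differed between ages, a share of 2.26%, with 223 (1.63%) higher and 86 lower at 22 months. Scaling by total counts alone moved the median of all genes to -0.49 on the log2 scale and gave 96 higher and 4536 lower genes.

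Tuft cell genes were scarce in these pools. Together the 10 genes held 52 and 78 counts at 2 months, against 175 and 98 at 22 months. Their summed level was 3.58 and 5.16 CPM at 2 months and 13.2 and 8.01 CPM at 22 months, so that neither old pool reached down to a young one. The scale of these levels depends on mitochondrial reads, since leaving those genes out of the scaling raised the mean sums from 4.37 and 10.6 CPM to 14.2 and 34.4 CPM, whereas the log2 fold changes of Dclk1 and Ptgs1 were then 3.09 and 7.96. Without Dclk1 and Ptgs1, left out after their values were seen, the sum of the other 8 was 3.31 and 4.90 CPM when young against 7.18 and 4.82 CPM when old, and the ages overlapped. In such bulk libraries, more cells of a type and more RNA per cell cannot be told apart.

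Of the 10 genes, 4 passed the filter (Dclk1, Ptgs1, Trpm5 and Pou2f3) and 6 did not. Rgs13 lay close to the limit, above 1 CPM in ISC_22mth replicate 1 after TMM but not before. Dclk1 and Ptgs1 had FDR under 0.05, both higher at 22 months, and none was lower. Dclk1 and Ptgs1 passed the filter only through the ISC_22mth pools, so that neither this count nor the median log2 fold change of the 4 genes, 2.01 beside -0.0049 for all genes tested, is evidence on tuft cell genes as a group. That median was 1.44 without ISC_22mth replicate 1 and 2.65 without ISC_2mth replicate 2. The ages did not overlap in 2 of the 4 genes, and in 47.6% of all genes tested.

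**Figure D1:**
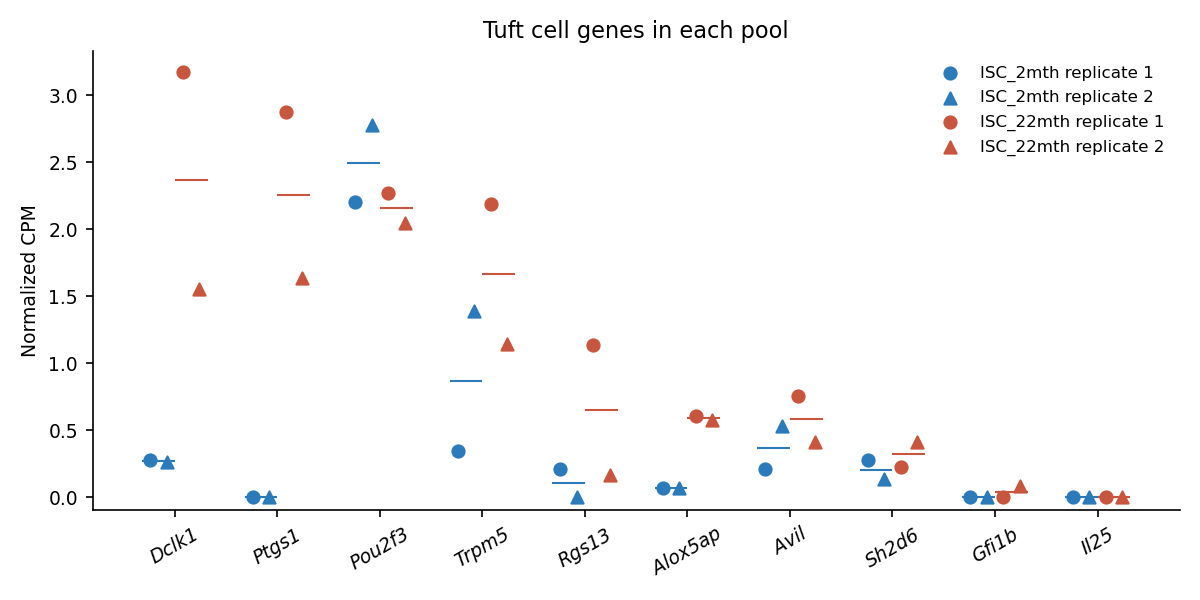
Normalized CPM (linear axis) of the 10 tuft cell genes in each of the 4 pools, ordered by the mean of the ISC_22mth pools, with horizontal lines at the mean of each age (n = 2 pools). Dclk1 rose from 0.276 and 0.265 CPM to 3.17 and 1.55 CPM and Ptgs1 from 0 in both young pools to 2.87 and 1.64 CPM, whereas the points of Pou2f3 and Trpm5 overlap between ages.

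Ptgs1 encodes cyclooxygenase-1, which converts arachidonic acid to the precursor of prostaglandins and thromboxane. No read of Ptgs1 was counted in either ISC_2mth pool, whereas the ISC_22mth pools held 38 and 20 counts. Expression was therefore listed at 0 in young ISCs, where 3 counts over both pools would allow up to 0.101 CPM, and at 2.25 ± 0.874 CPM (mean ± SD, n = 2 pools) in old ISCs. With the counts of both old pools set over their joint library size, Ptgs1 was at least 22.5-fold higher at 22 months than 3 counts over both young pools would give (FDR = 0.0038). The fitted log2 fold change of 7.97 depends on the prior count added to the zeros and is no measure of size, and the bound corresponds to 4.49 on the log2 scale. Both old pools stood apart from both young pools by more than they differed from each other. FDR stayed under 0.05 in each of the 13 alternative fits, including those without ISC_22mth replicate 1 (FDR = 0.013) and the limma voom fit with weights for sample quality (FDR = 0.032), which called 2.34% of all genes.

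Dclk1 encodes a doublecortin-like kinase that binds microtubules and is the most used marker of intestinal tuft cells. Its counts were 4 and 4 at 2 months, against 42 and 19 at 22 months. Expression rose from 0.270 ± 0.0077 CPM in young ISCs to 2.36 ± 1.15 CPM in old ISCs (mean ± SD, n = 2 pools per age). The difference was 3.09 on the log2 scale (95% interval 1.60 to 4.58, standard error 0.71, FDR = 0.026). The young pools were nearly equal whereas the old pools differed, with ISC_22mth replicate 1 the higher, as for Ptgs1. Without that pool the log2 fold change of Dclk1 was 2.49 and the call was lost, so the call rests on it. Without ISC_2mth replicate 1 the call was lost too, although the log2 fold change was 3.12. The voom fit gave a log2 fold change of 2.92 and did not call the gene (FDR = 0.087).

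Both genes are protein-coding, on GRCm38 (GENCODE vM21 annotation). Ptgs1 lies on chromosome 2 from 36230426 to 36252272 on the forward strand, and its exons share 148 bp with Gm43621 on the opposite strand. Gm43621 had 0 counts in both young pools and 2 and 11 in the old pools. Dclk1 lies on chromosome 3 from 55242364 to 55539068 on the forward strand, and its exons share 27 bp with Gm21954 and 87 bp with Gm42609, both on the opposite strand and with at most 2 counts in any pool. Of the 50-nt stretches in their transcripts, 2.63% of those of Ptgs1 and 0.271% of those of Dclk1 also occur in transcripts of other genes.

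The 250 bases before each start are printed because Dclk1 and Ptgs1 were both called higher. They are from RefSeq (GRCm38.p6), on the forward strand, and Dclk1 has 2 starts, which the counts per gene do not separate. The letters searched were ATGCAAAT, the octamer that POU factors bind, its first 7 letters ATGCAAA, which the octamer contains, and the STAT6 palindrome, TTC and GAA spaced by 4 bases, on both strands. Capitals mark the STAT6 palindrome, the only match in these 3 windows.
Ptgs1 (chr2:36230176-36230425): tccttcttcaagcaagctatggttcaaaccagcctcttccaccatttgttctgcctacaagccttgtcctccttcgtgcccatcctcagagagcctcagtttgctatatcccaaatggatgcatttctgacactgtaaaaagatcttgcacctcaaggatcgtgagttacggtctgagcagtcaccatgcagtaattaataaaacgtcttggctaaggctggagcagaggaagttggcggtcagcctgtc
Dclk1, first start (chr3:55242114-55242363): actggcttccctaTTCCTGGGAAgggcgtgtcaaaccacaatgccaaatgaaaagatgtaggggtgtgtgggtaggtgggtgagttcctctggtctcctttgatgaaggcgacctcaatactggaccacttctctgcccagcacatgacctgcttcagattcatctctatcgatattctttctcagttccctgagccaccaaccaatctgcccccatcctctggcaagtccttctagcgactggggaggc
Dclk1, second start (chr3:55461478-55461727): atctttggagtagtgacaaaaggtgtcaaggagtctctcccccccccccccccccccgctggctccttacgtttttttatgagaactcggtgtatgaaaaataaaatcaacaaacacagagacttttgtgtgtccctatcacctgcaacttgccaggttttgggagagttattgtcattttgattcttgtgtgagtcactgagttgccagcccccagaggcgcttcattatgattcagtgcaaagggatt
The octamer was found in 1.60% of the 32851 windows of all RefSeq starts, its first 7 letters in 4.12% and the palindrome in 5.85%.

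Trpm5 encodes the calcium-activated cation channel that depolarises taste and tuft cells. Counts were 5 and 21 at 2 months, against 29 and 14 at 22 months. These correspond to 0.344 and 1.39 CPM when young against 2.19 and 1.14 CPM when old, so that ISC_22mth replicate 2 lay below ISC_2mth replicate 2. Mean expression was 0.867 ± 0.739 CPM at 2 months and 1.67 ± 0.740 CPM at 22 months (SD, n = 2). The difference was 0.94 on the log2 scale (95% interval -0.50 to 2.37, standard error 0.68, FDR = 0.522). From counting error alone the ratio of old to young counts was 1.92 (exact conditional 95% interval 1.16 to 3.26), an interval that leaves out the spread between pools. With 1 pool left out the log2 fold change lay between 0.27 (without ISC_2mth replicate 1) and 2.24 (without ISC_2mth replicate 2). Enteroendocrine genes showed the same low pool among the young, and their part in the Trpm5 values was not tested. That list of 12 genes summed to 44.7 and 160 CPM in the ISC_2mth pools and to 149 and 99.9 CPM in the ISC_22mth pools. Trpm5 lies on chromosome 7 from 143069153 to 143094642 on the reverse strand and shares 220 bp of exon with Tssc4 on the opposite strand, which had between 40 and 64 counts.

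Pou2f3 encodes the octamer-binding factor without which tuft cells do not form. It had 32 and 42 counts at 2 months, against 30 and 25 at 22 months. Expression was 2.49 ± 0.406 CPM in young ISCs and 2.16 ± 0.157 CPM in old ISCs (SD, n = 2), and the pools of the ages overlapped. The difference was -0.21 on the log2 scale (FDR = 0.847, standard error 0.41), and its 95% interval of -1.07 to 0.66 holds changes in either direction. Across the alternatives it stayed between -0.69, with total counts, and -0.038, and it was called in none of them. Pou2f3 is on chromosome 9 from 43123939 to 43210369, reverse strand.

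Gfi1b, a zinc finger repressor of transcription, and Il25, the cytokine that tuft cells send to innate lymphoid cells, were near absent. Gfi1b (chromosome 2 from 28609450 to 28621982) had 1 count, in ISC_22mth replicate 2. Il25 (chromosome 14 from 54932695 to 54935837) had no read in any pool, and 3 counts over the 4 pools would allow up to 0.0544 CPM. Neither level can be compared between ages at this depth.

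Alox5ap encodes the activating protein of 5-lipoxygenase, which the leukotriene pathway needs. Its counts were 1 and 1 when young against 8 and 7 when old, or 0.0689 and 0.0662 CPM against 0.604 and 0.572 CPM. The ages did not overlap and the pools of each age were close together. The ratio of old to young was 8.73, with an exact conditional 95% interval of 2.03 to 78.7 that covers counting error only. The gene did not reach the filter, and when all 24764 genes with a read were fitted its log2 fold change was 2.96 (FDR = 0.323). In that fit 2.24% of all genes were called, but not Alox5ap, Rgs13, Avil, Sh2d6 or Gfi1b, and Il25, without a read, was not in it. Alox5ap is on chromosome 5 from 149264767 to 149288153, forward strand, and shares 189 bp of exon with Gm19719, which had 4 counts, all in ISC_22mth replicate 2.

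Rgs13 encodes a regulator that shortens G protein signals. It had 3 and 0 counts when young against 15 and 2 when old, so that ISC_22mth replicate 1 was highest and the ages overlapped. The ratio of 6.59 (exact conditional interval 1.91 to 35.1) covers counting error only, and the fit without a filter gave a log2 fold change of 2.58 (FDR = 0.337). Rgs13 is on chromosome 1 from 144138654 to 144177372, reverse strand.

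Avil encodes advillin, which bundles the actin filaments of the tuft cell brush. Counts were 3 and 8 when young against 10 and 5 when old, with overlapping levels of 0.207 and 0.529 CPM against 0.756 and 0.409 CPM. Sh2d6, which encodes a protein with an SH2 domain, had 4 and 2 counts when young against 3 and 5 when old, and its ages overlapped as well. The ratios of old to young counts were 1.59 for Avil (exact conditional interval 0.681 to 3.82) and 1.55 for Sh2d6 (0.472 to 5.43). Avil is on chromosome 10 from 127000709 to 127020994, forward strand, and shares 165 bp of exon with Tsfm, a gene on the opposite strand with between 63 and 94 counts. Sh2d6 is on chromosome 6 from 72513641 to 72521707, reverse strand.

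The window before the start of Avil is shown because it alone, of the windows found for 7 of the 10 genes, held the first 7 letters of the octamer, marked in capitals, once on each strand. The full octamer was in none of these windows, and besides Dclk1 the STAT6 palindrome was in that of Gfi1b. Pou2f3, Il25 and Alox5ap had no window in the table.
Avil (chr10:127000459-127000708): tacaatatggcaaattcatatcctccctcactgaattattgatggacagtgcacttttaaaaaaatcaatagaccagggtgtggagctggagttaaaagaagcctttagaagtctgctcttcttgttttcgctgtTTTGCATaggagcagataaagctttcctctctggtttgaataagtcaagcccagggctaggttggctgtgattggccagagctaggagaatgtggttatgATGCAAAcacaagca

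Levels of different genes can be compared only per length of exon. At 2 months Pou2f3 was highest, with 0.807 ± 0.131 CPM per kb (SD, n = 2), and stood clear of the next gene. Trpm5, Sh2d6, Avil, Rgs13 and Alox5ap followed between 0.135 and 0.0476 CPM per kb, each overlapping its neighbour in this order. Dclk1 came next with 0.0177 CPM per kb, below both pools of Alox5ap, and Gfi1b, Il25 and Ptgs1 were at 0. At 22 months Pou2f3 was still first with 0.698 ± 0.0509 CPM per kb, now overlapping Ptgs1 at 0.580 ± 0.225. Alox5ap, Rgs13, Trpm5, Sh2d6, Avil and Dclk1 followed from 0.414 down to 0.155 CPM per kb, and no neighbours among these differed beyond their pools. The exons of Dclk1 annotated across all isoforms add up to 15.3 kb, so that its level per length is a low estimate if ISCs use few of them. For scale, Muc2, which marks goblet cells, stood between 142 and 202 CPM per kb and Chgb, which marks enteroendocrine cells, between 7.87 and 39.9 CPM per kb.

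**Figure D2:**
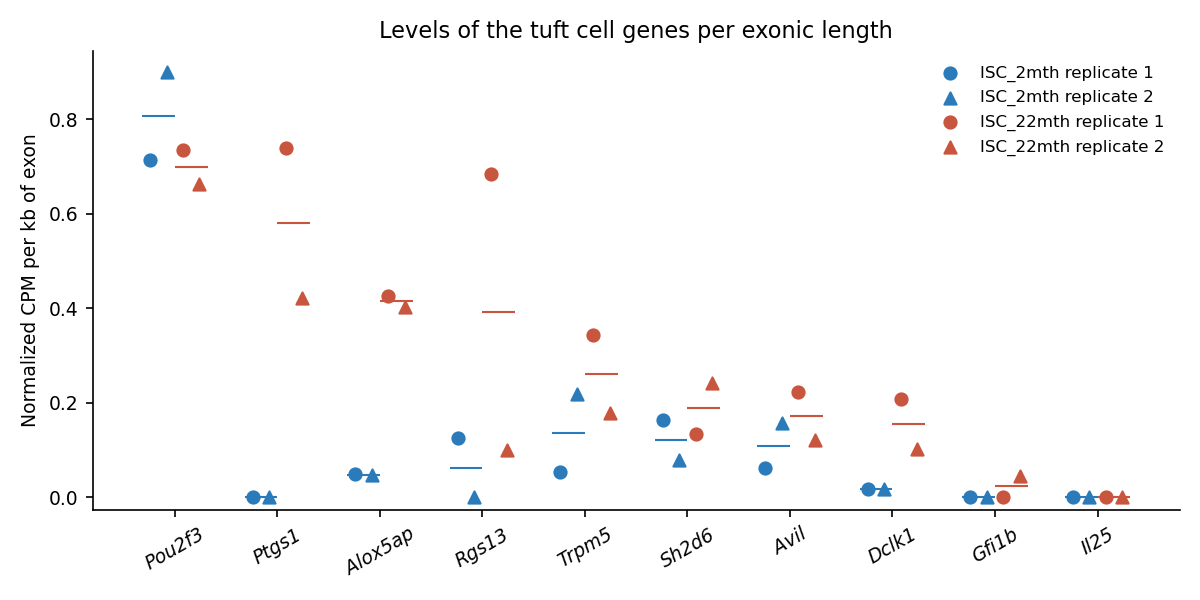
Normalized CPM per kb of annotated exon (linear axis) of the 10 genes in each pool, ordered by the mean of the ISC_22mth pools, with lines at the mean of each age (n = 2 pools). Pou2f3 is highest at both ages, with means of 0.807 and 0.698 CPM per kb, and Ptgs1 moves from 0 to 0.580 CPM per kb.

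A wider list of 62 tuft cell genes, grouped by role, was read beside the 10. Of these 7 had no read in any pool, 35 passed the filter, and 1 had FDR under 0.05, beside 2.26% of all genes tested. Their median log2 fold change was 0.097, with 19 of 35 above 0, and under total counts it became -0.39 with 8 of 35 above 0, beside -0.49 for all genes. The gene called was Cd24a, which encodes the surface glycoprotein CD24 that was itself part of the sort. Its counts were 4838 and 4218 when young against 6280 and 6208 when old. Cd24a rose from 306 ± 38.3 to 491 ± 23.5 CPM (SD, n = 2), or by 0.68 on the log2 scale (FDR = 0.0035, standard error 0.11), which was 0.18 and not called (FDR = 0.288) under total counts.

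Among transcription factors, none of the 2 tested of 6 was called. Sox9, a factor of crypt and tuft cells, had a log2 fold change of -0.28 (FDR = 0.247) and Runx1 one of 0.46 (FDR = 0.361). Hmx2 and Hmx3 had no read, and 1810046K07Rik, the mouse symbol of a coactivator of POU2F3, had 9 and 7 counts when young against 12 and 9 when old.

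Of 11 genes of taste-type signalling, 3 were tested and none was called. Gnat3, the G protein subunit of taste and tuft cells, and Sucnr1, the succinate receptor, had no read, and Gng13 had 1 count in each old pool. Itpr3, an intracellular calcium channel also used by other epithelial cells, had the lowest p of the group, with a log2 fold change of -0.40 (FDR = 0.146). Tas1r3, a taste receptor subunit, had 55 and 33 counts when young against 22 and 29 when old (log2 fold change -0.57, FDR = 0.534).

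Of the 7 other eicosanoid genes around Ptgs1 and Alox5ap, 5 were tested and none was called. Pla2g4a, the phospholipase that frees arachidonic acid, had 435 and 427 counts when young against 521 and 459 when old (log2 fold change 0.40, FDR = 0.145). Ltc4s, which makes leukotriene C4, had 9 and 16 counts when young against 5 and 2 when old (log2 fold change -1.59, FDR = 0.433). Lta4h, which makes leukotriene B4, had a log2 fold change of -0.043 (FDR = 0.909), with a 95% interval of -0.32 to 0.24. Alox5, the lipoxygenase that Alox5ap serves, was counted in 1 pool of each age only, with 13 counts in ISC_2mth replicate 1 and 6 in ISC_22mth replicate 1. Ptgs2, the inducible cyclooxygenase, had no read.

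In the type 2 circuit, 4 of 5 genes were tested and none was called. Il13ra1, a receptor chain for interleukin 13, had 127 and 153 counts when young against 216 and 166 when old, which is 9.44 ± 0.971 and 14.9 ± 1.94 CPM (SD, n = 2). Its log2 fold change of 0.66 did not pass the threshold (FDR = 0.091), and was 0.79 without ISC_22mth replicate 2. Il13ra1 was called by the likelihood ratio test (FDR = 0.048) and with the replicate number as a block (FDR = 0.047). Those fits called 611 and 624 genes, against 309, and no other fit of all pools called Il13ra1. Stat6, which acts below that receptor, had a log2 fold change of -0.40 (FDR = 0.163), in the opposite direction, and one of -0.52 without ISC_22mth replicate 1. With total counts it was called lower (-0.89, FDR = 0.00022). That scaling called 4536 of the 13692 genes tested lower, with a median of -0.49 for all genes. Sox9, Itpr3, Lta4h, Krt18 and Ptpn18 were also called lower by it. Il17rb, a receptor chain for IL-25, had 39 and 50 counts when young against 30 and 32 when old, and Chat, which makes acetylcholine, had no read.

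Of 7 cytoskeletal genes 6 were tested, and none was called. Krt18, a keratin of simple epithelia and the most abundant of them, had a log2 fold change of -0.015 (95% interval -0.30 to 0.26), and the adaptor Fyb one of 1.71 on 3 and 8 counts when young against 11 and 20 when old (FDR = 0.32). Of 17 signalling genes that tuft cells share with blood cells, 8 were tested and none was called. Rgs2, a regulator of G protein signals, had 81 and 157 counts when young against 227 and 132 when old (log2 fold change 0.81, FDR = 0.127). It was called without a filter (FDR = 0.020) and with the replicate number as a block (FDR = 0.013), and in no other fit of all pools. Its log2 fold change was 1.32 without ISC_2mth replicate 2 and 1.10 without ISC_22mth replicate 2. Pik3r5, a regulatory subunit of a phosphoinositide kinase, had 4 and 0 counts when young against 23 and 4 when old (log2 fold change 2.86, FDR = 0.229), again highest in ISC_22mth replicate 1. Ptpn18, the most abundant of the group, had a log2 fold change of -0.22 (FDR = 0.488). Of 9 other markers 7 were tested, and besides Cd24a none was called, the next being Smpx (log2 fold change -1.16, FDR = 0.544).

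**Figure D3:**
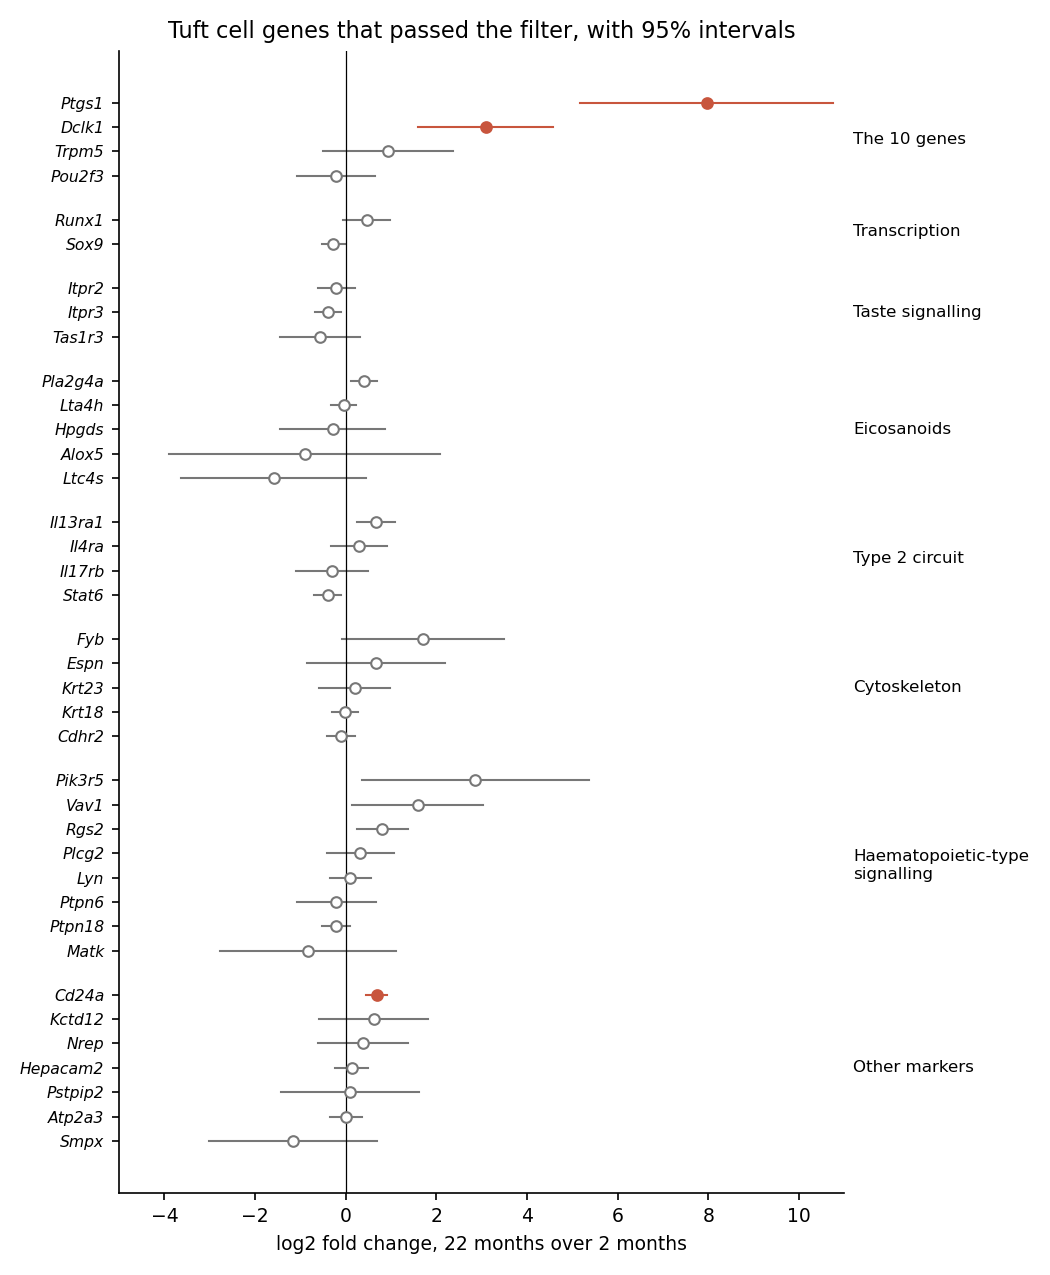
Log2 fold change of 22 over 2 months with 95% intervals for the 4 tuft cell genes and for genes of the wider list that passed the filter, grouped by role, with filled points for FDR under 0.05. Ptgs1 (7.97, a value that depends on the prior count), Dclk1 (3.09) and Cd24a (0.68) are filled, and the points of all other genes drawn are open, also where the interval of a single gene leaves out 0, as for Il13ra1.

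Several of these genes are also used by other cells, so the markers of those cells are given beside them. Ptgs1, Alox5ap, Rgs13 and Gfi1b are expressed in leukocytes, mast cells or platelets. Of 11 mast cell and basophil genes, 9 had no read in any pool, and the others were Kit and Hdc, with log2 fold changes of -0.18 and 0.23. Of 7 platelet and megakaryocyte genes 3 had no read, among them Pf4 and Ppbp, and the list held 2, 17, 3 and 4 counts in ISC_2mth replicates 1 and 2 and ISC_22mth replicates 1 and 2. Of 18 leukocyte genes 6 had no read and 3 were tested. The list summed to 15.8 and 17.1 CPM when young against 24.8 and 24.4 CPM when old. Itgam and Ccr2 were called higher (FDR = 0.030 and 0.034), beside 1.63% of all genes tested. Ccr2, without a read in the young pools, passed the filter only through the ISC_22mth pools. Without Itgam and Ccr2, left out after their values were seen, the list summed to 5.65 and 4.17 CPM when young against 4.61 and 2.45 CPM when old. Ptprc, which encodes the CD45 used to discard leukocytes, had 2 counts, both in ISC_22mth replicate 1. Dclk1 is also expressed in nerve and stroma, and of 13 genes of stroma, endothelium and nerve 7 had no read, with a sum of 3.10 and 3.18 CPM when young against 2.95 and 1.31 CPM when old.

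Genes of the other secretory cells and of absorptive cells are given in the same way. Their counts of called genes stand beside a share of 1.63% called higher among all genes tested. Paneth cell genes summed to 941 and 725 CPM when young against 2081 and 809 CPM when old, so that ISC_22mth replicate 1, the pool with the highest Dclk1, Ptgs1 and Rgs13, stood apart in them too. Of 10 Paneth cell genes, 2 were called higher (Defa17 and Defa24). Enterocyte genes summed to 632 and 737 CPM when young against 1256 and 1105 CPM when old, and 4 of 9 were called higher, with Fabp1 (log2 fold change 2.35) and Sis (1.38) at the lowest p. Of 12 enteroendocrine genes 11 were tested and 1 was called higher, Sst, with 7 and 7 counts when young against 120 and 9 when old. Sst passed the filter only through ISC_22mth replicate 1. None of 9 goblet cell and 9 stem cell genes was called, and the sums of both lists overlapped between ages. The part of these cells in the values of Dclk1, Ptgs1 and Rgs13 was not tested.

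**Figure D4:**
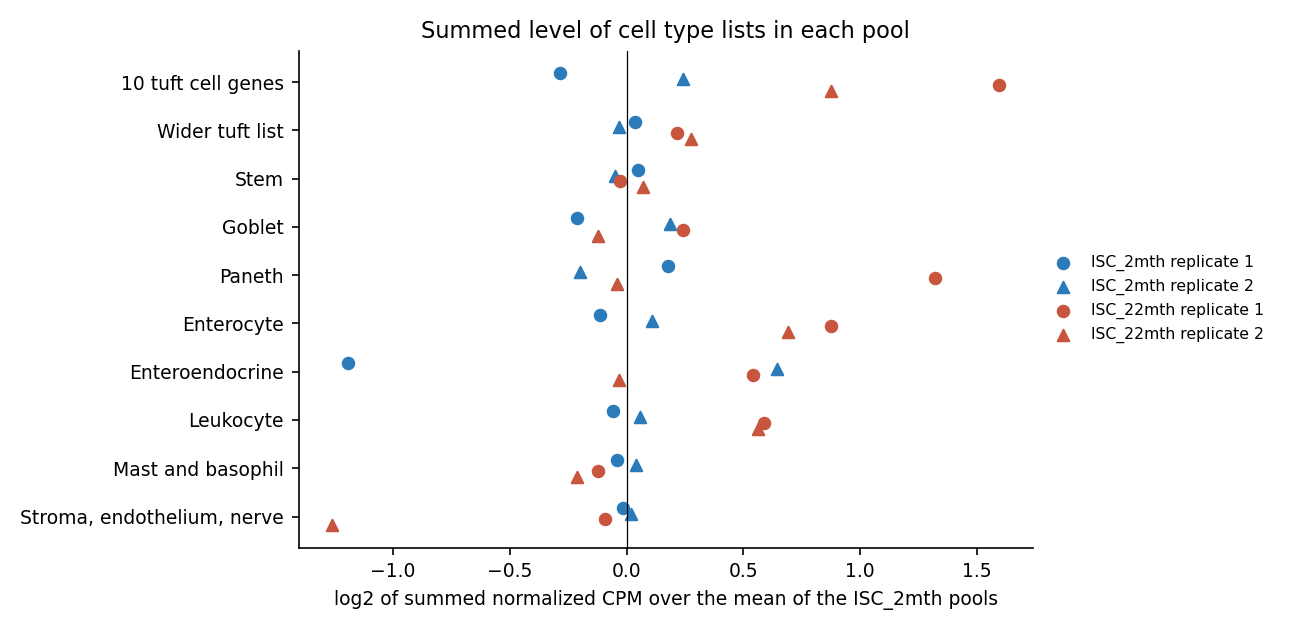
Summed normalized CPM of each list in each pool, as log2 of its ratio to the mean of the ISC_2mth pools. The 10 tuft cell genes reach 13.2 CPM in ISC_22mth replicate 1, the pool where Paneth cell genes also stand apart at 2081 CPM, whereas stem and goblet cell lists overlap between ages.

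The same 4 fold changes under every alternative are plotted for comparison. Among the 9 alternatives that used all pools, Ptgs1 had FDR under 0.05 in 9 and Dclk1 in 8, whereas Trpm5 and Pou2f3 had it in 0. Each gene kept its direction in all 13. These fits reuse the same pools, and the direction of Ptgs1, without a read in either young pool, could not reverse.

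**Figure D5:**
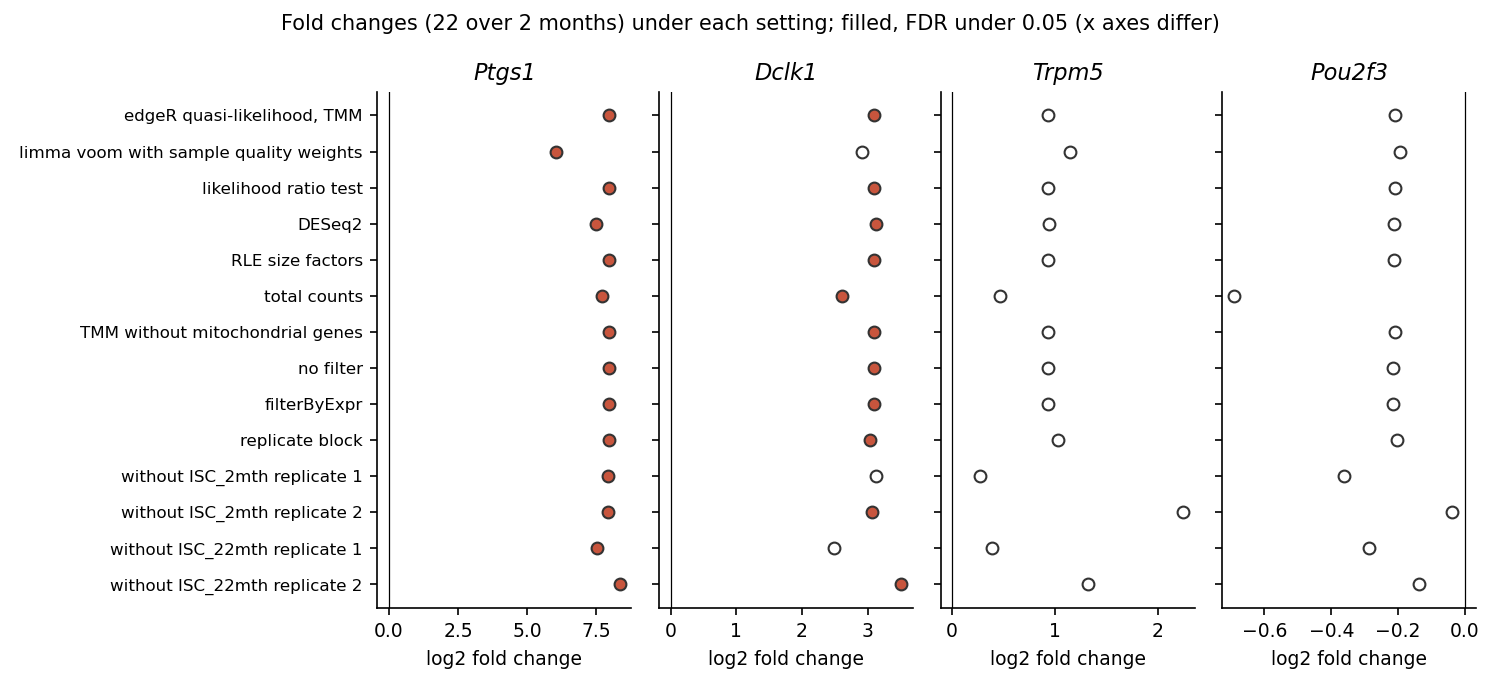
Log2 fold change of Ptgs1, Dclk1, Trpm5 and Pou2f3 under the 13 alternative fits, with the quasi-likelihood fit on top, on axes that differ between panels and with filled points for FDR under 0.05. The log2 fold change of Dclk1 ranges from 2.49 to 3.51 and loses its call without ISC_2mth replicate 1, without ISC_22mth replicate 1 and in the voom fit.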

How the data were processed

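RNA of the 4 pools was amplified with a full-length method (SPIA), for which no molecular identifier is named, and sequenced from 1 end. Per the labels and the paper, the authors trimmed reads with Trimmomatic (0.30), aligned them to GRCm38 with STAR (2.4.2a), counted reads in exons of GENCODE genes (vM15) with featureCounts, and deposited raw counts per gene. Strand and multi-mapping settings are not given in the sources used here, so reads from overlapping genes cannot be assigned with certainty.

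Genes exceeding both 5 reads and 1 CPM (over total counts, before TMM) in any pool were compared between ages with edgeR (4.0.16, R 4.3.3), scaled by TMM and fitted with glmQLFit on age alone, and p-values of glmQLFTest were adjusted after Benjamini-Hochberg over the whole table. Alternatives used limma (3.58.1), DESeq2 (1.42.0), other scalings and filters, the replicate number as a block, and 1 pool left out, where the lone pool was assumed to vary like the other age. Ratios of counts carry exact conditional 95% intervals that cover counting error only, whereas intervals of log2 fold changes come from the quasi-likelihood fit and hold the spread between pools. The fits were tested on simulated data.

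The 10 genes and all lists were chosen with earlier results of these data known. Named are the 10 genes and, from each wider tuft list, the called genes, the most abundant and the 2 of lowest p, and at most 2 of lowest p from other lists. A gene that this rule names is not reported here. Other genes named (those without a read, those of few counts, and markers of a sort or cell type) were chosen after their values were seen. Exon lengths and positions came from GENCODE vM21. Replicate pools were compared and differed by more than counting noise (chi-square per gene 9.42 and 7.11).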

Additional observations from a re-analysis of the deposited data

How the results depend on the processing

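Across the alternatives Ptgs1 kept its call, and Trpm5 and Pou2f3 stayed uncalled. Dclk1 was not called in the limma voom fit weighted for sample quality (log2 fold change 2.92), and with 1 pool left out its log2 fold change lay between 2.49 (without ISC_22mth replicate 1) and 3.51 (without ISC_22mth replicate 2). The number of genes with FDR under 0.05 (309, with 223 higher and 86 lower) was 611 by the likelihood ratio test (375 and 236), 197 by DESeq2 (147 and 50), 4632 with total counts (96 and 4536) and 554 without a filter (357 and 197). With 1 pool left out it lay between 147 and 687, with 122 to 461 higher and 25 to 243 lower. Of the wider list, 1 gene was called (Cd24a, higher), against 2 by the likelihood ratio test and without a filter. With total counts 9 of 35 were called, all of them lower and Cd24a not among them, beside 4632 of the 13692 genes tested. With the replicate number as a block, 624 genes were called (407 higher and 217 lower), 3 of the wider list among them (Cd24a, Rgs2 at FDR = 0.013 and Il13ra1 at FDR = 0.047), and Dclk1 had a log2 fold change of 3.03. Equally numbered pools of both ages hold different animals, and the labels link them by number only. Their deviations had a correlation of -0.00015 across genes. Whether such pools were processed together was not tested. The 6 genes below the filter had at most 15 counts in any pool, which limits the precision of their ratios.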
